A study of Homo sapiens with 24 samples.

Results

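The genes examined encode the proteasome, the protease that degrades ubiquitin-tagged proteins and produces most of the peptides shown by MHC class I molecules. They are the 49 rows of the deposited count table, of 26485 in all, whose symbol begins with PSM and a letter from A to G followed by a number, without a hyphen. Of these, 47 passed the filter on low counts and were tested. PSMA8, a testis alpha subunit, had 3 counts over all 24 libraries, and PSMB11, the thymic catalytic subunit, had 0. PSMC3IP matches by its letters only, since it encodes a partner of meiotic recombinases and not a proteasome subunit.

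The 20S core is a barrel of alpha rings, which gate it, around beta rings, which carry the active sites of PSMB5, PSMB6 and PSMB7. Interferon gamma (IFN) is known to induce PSMB8, PSMB9 and PSMB10, which replace PSMB5, PSMB6 and PSMB7 during assembly and so form the immunoproteasome. The 19S particle, built of the PSMC ATPases and PSMD subunits, caps the core and unfolds ubiquitinated substrates. The PA28 activator, built of PSME1 and PSME2, is a different cap that is also known as interferon-inducible, and PSMG proteins help to assemble the core.

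RNA was sequenced from SH-SY5Y, an established human neuroblastoma cell line, in 8 groups of 3 libraries. At 24 h the cells had received dextran-catechin (DC) with IFN, the polyamine TEPA with IFN, IFN, DC, TEPA, or nothing (24 h control). At 4 h they had received copper or nothing (4 h control). DC and TEPA are used as copper chelators, and the series asks how copper and its chelation bear on transcription with and without IFN. The labels name no dose and no genetic change, and they do not say that the 3 libraries of a group came from separate cultures, so p-values measure the spread between libraries, which may be technical.

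Library totals ran from 24569980 to 35372442 counts. The libraries also differed in base composition, measured as the median log2 deviation of genes above a GC fraction of 0.6 minus that of genes below 0.4. It was 0.59, 0.90 and -0.12 in the IFN libraries, against -0.97, -0.37 and -0.79 in the 24 h control. At 4 h it was -0.66, 0.79 and 1.33 in the copper libraries, against -1.34, 0.65 and 1.36 in the control, so that library 1 of each 4 h group stood apart, while every IFN library was above every 24 h control library. Neuroblastoma genes were abundant in every group except TH, which stayed under 1 CPM, the count scaled to a common TMM-adjusted library total. Of the other cell types' defining markers, CD3E, TYROBP, SPI1, KRT5 and KRT14 had 0 counts in all libraries and the endothelial PECAM1 and CDH5 were under 1 CPM. Some mesenchymal markers were expressed throughout and others were low. Over the 24 libraries COL3A1 had 253 to 399.8 CPM, LUM 88.7 to 224 CPM, PDGFRB 26.8 to 102 CPM and DCN 23.7 to 76.4 CPM. COL1A1 and COL1A2 were far lower, at 31 to 179 and 20 to 120 counts a library.

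The promoter windows of some interferon-responsive members are shown first, 3 of them chosen because they carry the same letters. RefSeq windows on GRCh38.p14, from 250 bases before to 50 after the annotated start, were found for 43 of the 49 members. Both strands were searched for GAAA, any 2 bases and GAAA again, a short form of the interferon-stimulated response element. PSMB10 is at chr16:67936801-67937100 on the minus strand, PSME1 at chr14:24135944-24136243 on the plus strand, PSME2 at chr14:24146561-24146860 on the minus strand and PSMB9 at chr6:32853942-32854241 on the plus strand. Capitals mark the match, and PSMB9 is shown as a strongly responding member with no match in its window:
PSMB10: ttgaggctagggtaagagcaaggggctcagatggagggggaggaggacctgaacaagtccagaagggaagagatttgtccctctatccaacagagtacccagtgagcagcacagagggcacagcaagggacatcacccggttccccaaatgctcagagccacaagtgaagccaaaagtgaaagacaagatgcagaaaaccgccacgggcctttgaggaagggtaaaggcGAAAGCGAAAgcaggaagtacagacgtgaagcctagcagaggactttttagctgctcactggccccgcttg
PSME1: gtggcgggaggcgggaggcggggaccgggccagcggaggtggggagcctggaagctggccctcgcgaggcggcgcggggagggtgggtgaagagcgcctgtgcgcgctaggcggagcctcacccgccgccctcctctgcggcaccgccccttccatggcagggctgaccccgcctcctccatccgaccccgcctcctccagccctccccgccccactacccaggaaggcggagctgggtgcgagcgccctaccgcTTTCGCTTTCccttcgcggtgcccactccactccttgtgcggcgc
PSME2: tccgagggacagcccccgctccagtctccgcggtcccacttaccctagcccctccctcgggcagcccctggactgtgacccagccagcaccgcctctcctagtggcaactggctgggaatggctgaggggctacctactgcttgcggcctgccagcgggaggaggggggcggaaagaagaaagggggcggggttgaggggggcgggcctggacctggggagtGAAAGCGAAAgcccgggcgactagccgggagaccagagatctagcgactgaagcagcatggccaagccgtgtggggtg
PSMB9: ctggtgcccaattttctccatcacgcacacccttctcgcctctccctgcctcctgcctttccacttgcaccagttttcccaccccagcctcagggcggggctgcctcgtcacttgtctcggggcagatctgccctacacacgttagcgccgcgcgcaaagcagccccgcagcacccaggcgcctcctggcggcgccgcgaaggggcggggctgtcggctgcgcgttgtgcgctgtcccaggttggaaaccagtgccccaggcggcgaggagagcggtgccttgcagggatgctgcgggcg
PSMB10 and PSME2 hold GAAAGCGAAA at positions -21 and -28 from the start, and PSME1 holds it on the opposite strand at position 5. A match to that pattern was present in 6 of the 43 windows (14.0%), against 3.65% of 27305 RefSeq windows. The other 3 were PSMG4, a core assembly chaperone (position -33), PSMB4 (position -68) and PSMA4 (position -240). PSMB4 and PSMA4 did not pass the test of IFN against the 24 h control that is given below. PSMB8, PSMA3, PSMA5, PSMA6, PSMB2, PSMB3 and PSMF1 passed it and, like PSMB9, had no match in their windows. The gamma-activated letters TTCNNNGAA occurred in 5 of 43 member windows (11.6%), against 7.88% of all, and in none of those of PSMB8, PSMB9, PSMB10, PSME1 or PSME2. The antioxidant-type letters TGACNNNGC occurred in 13 (30.2%), against 13.6% of all, PSMB9, PSME1 and PSME2 among them. These matches describe the letters of the windows, not binding.

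The 3 inducible catalytic subunits were almost silent without IFN and abundant with it. PSMB8, which has chymotrypsin-like activity, had 169, 165 and 121 CPM in the IFN libraries, against 0.577, 1.04 and 0.695 CPM in the 24 h control. PSMB9, which cleaves after hydrophobic residues, had 111, 119 and 81.3 CPM with IFN, against 0, 0.0672 and 0.0579 CPM in the control. PSMB10, which has trypsin-like activity, had 11, 12.8 and 5.34 CPM with IFN, against 0.17, 0.705 and 0.579 CPM in the control. No library with IFN overlapped a control library in any of the 3 genes, and IFN library 3 was the lowest of its group in each. In bulk RNA, more cells that respond and more RNA per cell cannot be told apart.

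A gene is called here when its Benjamini-Hochberg adjusted p from edgeR's quasi-likelihood test is under 0.05 over all 14654 genes. PSMB9 rose most among the members, by 11.11 on the log2 scale (SE 0.36, adjusted p = 8.45e-15). That value rests on a control group with 4 counts in total, 0, 2 and 2 by library. PSMB8 rose by 7.62 (SE 0.23, adjusted p = 3.52e-15), a 196-fold difference. PSMB10 rose by 4.30 (SE 0.55, adjusted p = 1.07e-05), or 19.7-fold, with the widest interval of the 3, from 3.15 to 5.46.

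PSMB8, PSMB9 and PSMB10 also rose with IFN in cells that received a chelator. With DC and IFN, PSMB8 had 126, 120 and 136 CPM, against 0.727, 0.922 and 1.01 CPM with DC alone (7.16 on the log2 scale, SE 0.23, adjusted p = 6.84e-15 in edgeR). With TEPA and IFN it had 173, 197 and 154 CPM, against 0.919, 1.11 and 1.02 CPM with TEPA alone (7.41, SE 0.23, adjusted p = 4.81e-15 in edgeR). Both pairs were far apart, and the 3 comparisons of IFN with its absence share no library.

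PSMB9 reached 80.2, 79.2 and 85 CPM with DC and IFN, against 0.109, 0.0288 and 0 CPM with DC (log2 fold change 10.74, SE 0.36). It reached 80.7, 100.4 and 73.2 CPM with TEPA and IFN, against 0, 0.0531 and 0.058 CPM with TEPA (log2 fold change 10.90, SE 0.36). The DC and the TEPA group each held 4 counts of PSMB9 in total, so both values rest on few counts. PSMB10 had 5.54, 5.43 and 7.5 CPM with DC and IFN, against 0.618, 1.01 and 0.538 CPM with DC (3.08 on the log2 scale, SE 0.52, adjusted p = 0.000356 in edgeR). It had 6.25, 11.4 and 6.38 CPM with TEPA and IFN, against 0.588, 1.7 and 0.754 CPM with TEPA (2.96, SE 0.51, adjusted p = 0.000338 in edgeR). TEPA library 2 held the highest PSMB10 level of the cells without IFN at 24 h, and it was still below every library with IFN.

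PSME1 and PSME2, the alpha and beta chains of PA28, started from a substantial level and rose together. PSME1 had 409.8, 397 and 339.6 CPM with IFN, against 65.7, 67.1 and 63.1 CPM in the 24 h control. PSME2 had 419, 393 and 357 CPM with IFN, against 61.7, 66.2 and 55.8 CPM in the control. The groups did not overlap, and the control libraries of PSME1 lay close to each other. The log2 fold change was 2.55 for PSME1 (SE 0.09, adjusted p = 1.96e-14) and 2.67 for PSME2 (SE 0.09, adjusted p = 1.48e-14), or 5.85-fold and 6.36-fold. In the chelator pairs the values were 2.52 and 2.61 for DC with IFN against DC, and 2.47 and 2.59 for TEPA with IFN against TEPA.

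**Figure D1:**
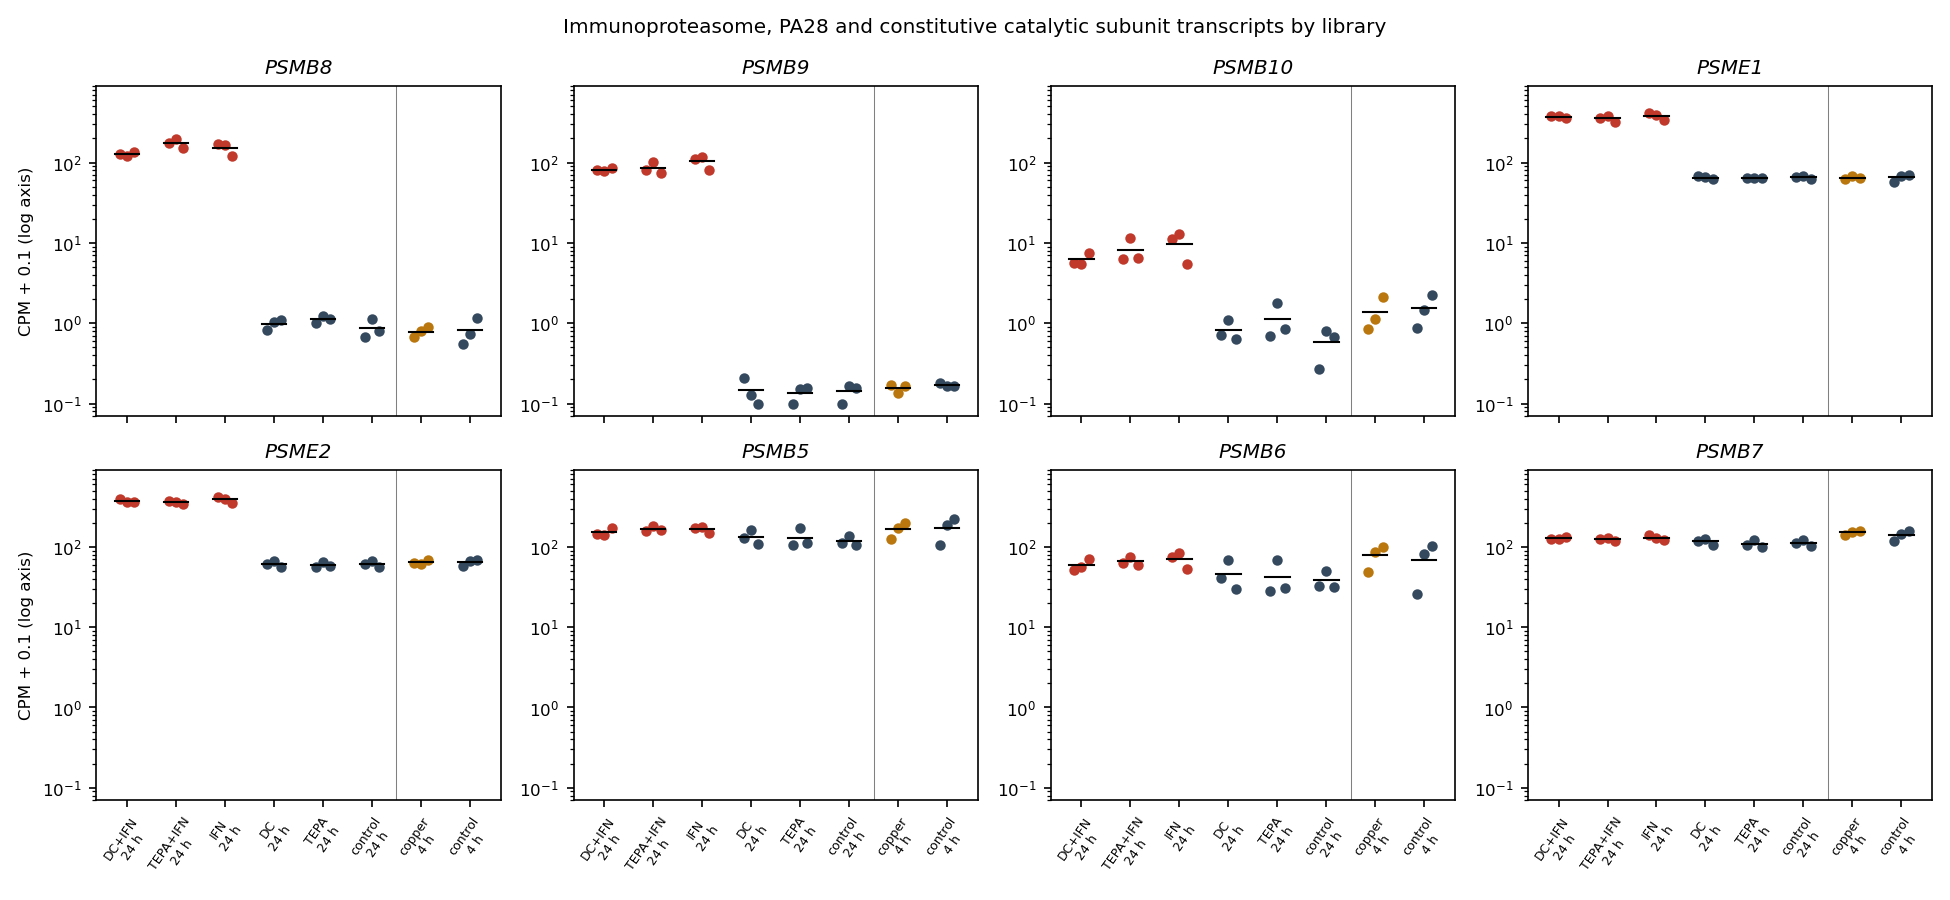
Level of 8 subunit transcripts in each library (vertical log axis, CPM plus 0.1; points are libraries and bars are means of 3; red marks IFN, orange copper and dark blue neither). PSMB8, PSMB9 and PSMB10 were at or under 2.14 CPM in every library without IFN and at 5.34 CPM or more with it, PSME1 and PSME2 moved between 2 separate levels, and PSMB5, PSMB6 and PSMB7 did not separate in this way.

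The constitutive catalytic subunits did not pass the test in any IFN comparison (0 of 3 by edgeR, DESeq2 and limma-voom; 1, PSMB6, had an unadjusted p under 0.05 in IFN against control). PSMB5, the chymotrypsin-like subunit, had 174, 175 and 147 CPM with IFN, against 113, 138 and 105 CPM in the 24 h control. PSMB6, the caspase-like subunit, had 75.6, 84.2 and 53.3 CPM with IFN, against 32.3, 50.6 and 31.9 CPM in the control. PSMB7, the trypsin-like subunit, had 140, 128 and 121 CPM with IFN, against 113, 123 and 102 CPM in the control. For PSMB5 and PSMB6 the 2 groups did not overlap, while IFN library 3 of PSMB7 lay below control library 2. The log2 fold changes were 0.48 (95% interval -0.01 to 0.96, adjusted p = 0.131), 0.89 (0.01 to 1.78, adjusted p = 0.124) and 0.20 (-0.01 to 0.42, adjusted p = 0.141) in edgeR.

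These intervals do not show that the 3 genes stayed level. Fitted on the 6 libraries of the comparison alone, edgeR called PSMB5 (0.47, adjusted p = 0.0105) and PSMB6 (0.89, adjusted p = 0.0093) higher with IFN, in a setting where 47.8% of the genes tested were called. In the chelator pairs PSMB5 differed by 0.19 with DC and 0.37 with TEPA, PSMB6 by 0.37 and 0.63, and PSMB7 by 0.13 and 0.19 on the log2 scale, none called with all 24 libraries. With the replicate block in the groups alone, edgeR called PSMB5 (0.41, adjusted p = 0.032) and PSMB6 (0.75, adjusted p = 0.0248) higher in the TEPA pair, where 30.7% of all genes were called. All 6 values were positive and all were under 1 on the log2 scale, where those of PSMB8, PSMB9 and PSMB10 were at least 2.96.

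Set per transcript length, the inducible subunits made up about as much as their partners in 2 of the 3 pairs. The share of PSMB8 in the sum of PSMB8 and PSMB5 was 49.2% ± 1.47 with DC and IFN, 54.6% ± 2.08 with TEPA and IFN and 51.2% ± 2.20 with IFN, against 0.787% ± 0.239 with DC, 0.924% ± 0.154 with TEPA and 0.733% ± 0.139 in the 24 h control (SD, n = 3 libraries each). The share of PSMB9 in its pair with PSMB6 was 60.0% ± 3.02, 58.3% ± 0.958 and 61.5% ± 0.920 in the same 3 groups with IFN, against 0.111%, 0.0958% and 0.114% in the 3 without. PSMB10 was the minor partner of PSMB7, at 3.71% ± 0.576 with DC and IFN, 4.90% ± 1.56 with TEPA and IFN and 5.58% ± 2.01 with IFN, against 0.488%, 0.722% and 0.344% without IFN. For all 3 genes no share with IFN overlapped one without it.

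A ratio within a library does not depend on the scaling between libraries. The log2 ratio of PSMB8 to PSMB5 was higher by 7.03 with IFN, that of PSMB9 to PSMB6 by 10.23 and that of PSMB10 to PSMB7 by 3.34, as means over the control, DC and TEPA strata with 0.5 added to the counts. Each gave an exact two-sided permutation p of 0.00025, the smallest that 8000 permutations within strata can give, and 0.00025 when adjusted over the 3 ratios. The 3 strata gave 6.95 to 7.14 for PSMB8 and 10.14 to 10.37 for PSMB9. For PSMB10 they gave 2.97 with DC, 2.86 with TEPA and 4.19 without a chelator, the widest range of the 3. The GC fraction of PSMB10 was 0.601, against 0.499 for PSMB7, and the libraries differed in base composition, so this ratio may carry part of that difference, which was not tested. Because 1 or more libraries without IFN had 0 counts of PSMB9 in each stratum, its ratio moves with the added constant and was 8.12 with 5 added.

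**Figure D2:**
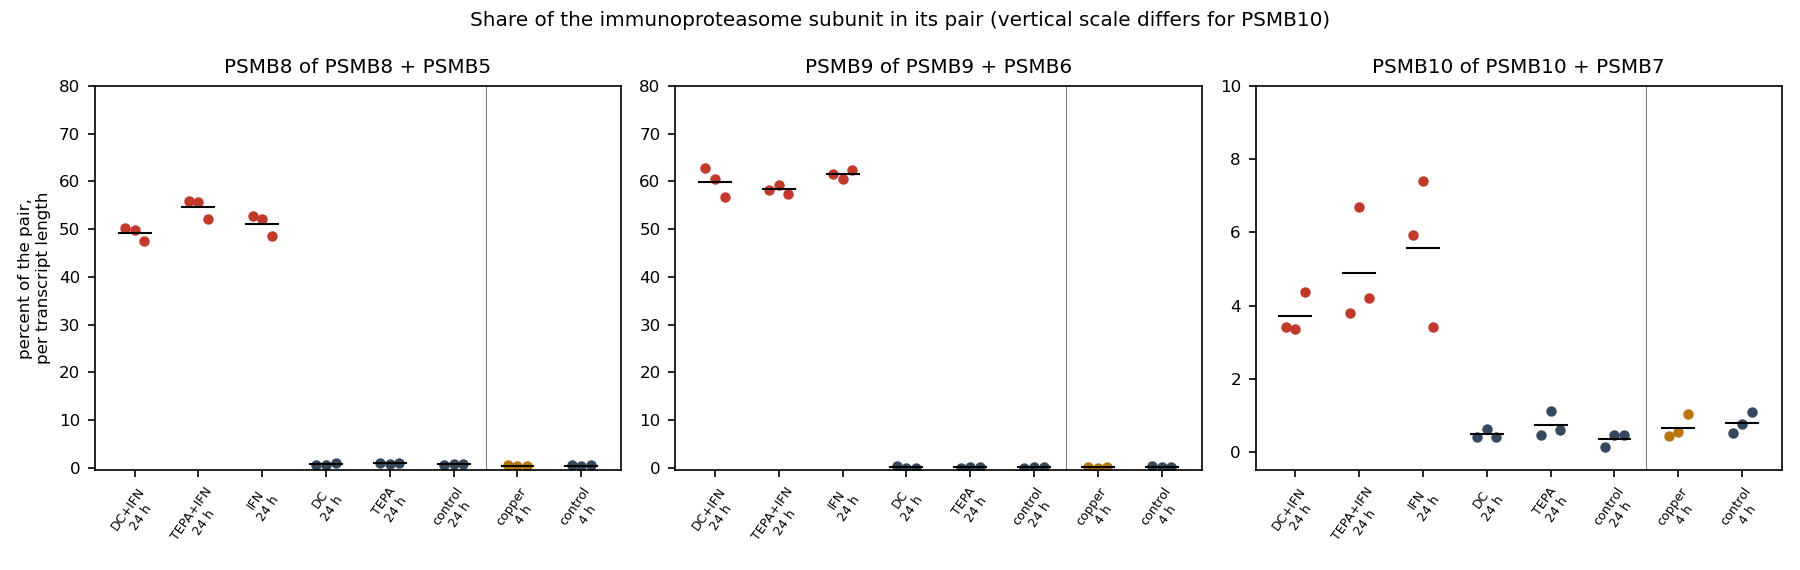
Percent of the summed level of each pair, per transcript length, that belongs to the inducible subunit (points are libraries, bars are means of 3; the vertical scale of PSMB10 is smaller). With IFN the share lay between 47.5% and 55.9% for PSMB8 and between 56.7% and 62.7% for PSMB9, but between 3.36% and 7.41% for PSMB10, and without IFN all shares were at or under 1.11%.

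PSMB8 and PSMB9 lie in the MHC class II region of chromosome 6, beside the peptide transporter genes. On GRCh38 with GENCODE 29, PSMB8 occupies chr6:32840717-32844703 on the minus strand and PSMB9 chr6:32844136-32859585 on the plus strand. TAP1, a chain of the transporter that carries proteasome products into the endoplasmic reticulum, occupies chr6:32845209-32853978 on the minus strand, and its start lies inside the PSMB9 promoter window. TAP1 had 1013, 963 and 665 CPM with IFN, against 0.407, 0.739 and 0.492 CPM in the 24 h control (10.65 on the log2 scale, SE 0.27, adjusted p = 3.51e-16 in edgeR).

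Reads at this locus may be shared between genes. Exons of PSMB8 overlap those of PSMB8-AS1 and PSMB9 on the opposite strand, and the strand setting of the counting is not given in the sources used here. PSMB8-AS1, annotated as a long noncoding RNA, had 29.6, 31.4 and 26.9 CPM with IFN, against 0.136, 0.0336 and 0.029 CPM in the control (8.74, SE 0.44, adjusted p = 7.34e-12 in edgeR). In all, 20 of the 49 members have an exon that overlaps an antisense gene, PSME1 and PSME2 among them, and 12 have annotated pseudogenes that could take reads. PSMB10 (chr16:67934502-67937087) has neither. PSME1 (chr14:24136158-24138967, plus strand) and PSME2 (chr14:24143362-24147570, minus strand) lie next to each other on chromosome 14 and are transcribed towards each other.

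Beyond these 5 genes, the IFN response reached part of the 20S core. In IFN against the 24 h control, 12 of 47 tested members were higher (25.5%) and 0 were lower, where 18.8% of all genes tested were called, 10% higher and 8.8% lower. Without PSMB8, PSMB9, PSMB10, PSME1 and PSME2, 7 of 42 were higher (16.7%), nearer to that background. DC with IFN against DC gave 11 higher and 0 lower members (23.4%), where 9.82% of all genes were called, 6.16% higher and 3.66% lower. TEPA with IFN against TEPA also gave 11 higher and 0 lower, where 14.2% were called, 7.28% higher and 6.89% lower. Deviations of same-numbered libraries were correlated in that comparison (lowest 0.226), so the fit with a replicate block is given too. It called 13 members with all 24 libraries, where 17.4% of all genes were called, and 25 in the groups alone, where 30.7% were. The same 11 genes were called in all 3 comparisons, 6 of them besides the 5 above.

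Of the 7 tested alpha subunits, 3 rose. PSMA6 had 411, 369 and 406 CPM with IFN, against 221, 209 and 215 CPM in the 24 h control (0.88 on the log2 scale, SE 0.13, adjusted p = 7.16e-05). PSMA3 had 179, 160.4 and 185 CPM with IFN, against 114, 113 and 104 CPM in the control (0.67, SE 0.12, adjusted p = 0.000672). PSMA5 had 178, 159 and 185 CPM with IFN, against 115, 115 and 106 CPM in the control (0.64, SE 0.12, adjusted p = 0.000786). In each of these alpha ring genes, by edgeR, the lowest library with IFN stood well above the highest control. With the chelators, PSMA6, PSMA3 and PSMA5 rose by 1.01, 0.88 and 0.74 in the DC pair and by 1.04, 0.75 and 0.67 in the TEPA pair on the log2 scale.

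The other alpha subunits were not called. PSMA2 and PSMA4 had log2 fold changes of 0.26 and 0.29 with IFN, PSMA7 of 0.23 and PSMA1 of -0.06. PSMA2 and PSMA4 were called once the GC trends of the libraries were removed, at 0.51 and 0.53, and they were then called in all 3 IFN comparisons. PSMA1 stayed uncalled in that setting.

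Among the structural beta subunits, which lack active sites, PSMB2 and PSMB3 rose. PSMB2 had 179, 177 and 173 CPM with IFN, against 116, 130 and 117 CPM in the 24 h control (0.54, SE 0.08, adjusted p = 3.71e-05 in edgeR). It rose by 0.46 in the DC pair and by 0.56 in the TEPA pair. PSMB3 had 94.8, 92.3 and 78 CPM with IFN, against 43.3, 56.1 and 41.7 CPM in the control (0.91, SE 0.27, adjusted p = 0.0263 in edgeR). The groups did not overlap in either gene, but leaving out control library 1 or 3 or IFN library 1 or 2 ended the call of PSMB3, at adjusted p between 0.0961 and 0.115 in edgeR. PSMB3 was not called in the DC pair (0.66, adjusted p = 0.168 in edgeR) or the TEPA pair (0.74, adjusted p = 0.0803 in edgeR). PSMB4 (0.64, adjusted p = 0.0709 in edgeR) and PSMB1 (-0.03) were not called with IFN.

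A core assembly chaperone and an inhibitor of the core rose as well. PSMG4 had 7.81, 7.55 and 7.05 CPM with IFN, against 5.3, 4.9 and 5.21 CPM in the 24 h control (0.54, SE 0.12, adjusted p = 0.0043 in edgeR). PSMF1, which in vitro inhibits the 20S core, had 98.6, 94.9 and 77.9 CPM with IFN, against 61.6, 63.5 and 59.3 CPM in the control (0.56, SE 0.09, adjusted p = 0.000208 in edgeR). Neither gene's groups overlapped. The chelator pairs gave 0.61 with DC and 0.49 with TEPA for PSMG4, and 0.43 in both for PSMF1. The call of PSMG4 in the TEPA pair was lost without TEPA library 1 or 3 or TEPA with IFN library 2 (adjusted p between 0.0559 and 0.0775 in edgeR) and in the groups alone (0.0885). In the DC pair it was lost in the groups alone (adjusted p = 0.055 in edgeR). The other chaperones of the core, PSMG1, PSMG2 and PSMG3, had -0.14, 0.07 and 0.56 and were not called.

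The 19S particle showed no call. Of its 17 subunits, 6 ATPases that thread the substrate into the core and 11 others that include the ubiquitin receptors and a deubiquitinase, 0 were called in each of the 3 IFN comparisons by edgeR, DESeq2 or limma-voom, and 2, 0 and 2 had an unadjusted p under 0.05 in edgeR (PSMC4 and PSMD6). Their log2 fold changes in IFN against the 24 h control ran from -0.34 (PSMD6) to 0.62 (PSMD8), with a median of 0.04 beside 0.01 for all genes tested. In the core without its inducible subunits, 5 of 14 tested genes were called and the median was 0.51. Of all genes tested, 18.8% were called in that comparison, 10% higher. Other settings did call 19S genes in 2 of the comparisons. In IFN against the control, 10 of the 17 were called when the groups of the comparison were fitted alone, where 47.8% of all genes were. There 12 were called with the replicate block (51.7% of all genes). Counts of 2 came with GC trends removed (32.4%), with the replicate block (29.6%) and without IFN library 3 (24.6%). In TEPA with IFN against TEPA, 4 were called with GC trends removed (29.4% of all genes) and 5 with the replicate block added (31.9%). The block in the groups alone gave 7 (30.7%), and leaving out TEPA library 2 gave 2 (23.4%). The 3 chaperones of the 19S base, PSMD5, PSMD9 and PSMD10, lay between -0.35 and -0.06. The other activators, PSME3 (PA28 gamma, a nuclear cap) and PSME4, lay at -0.14 and -0.16.

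**Figure D3:**
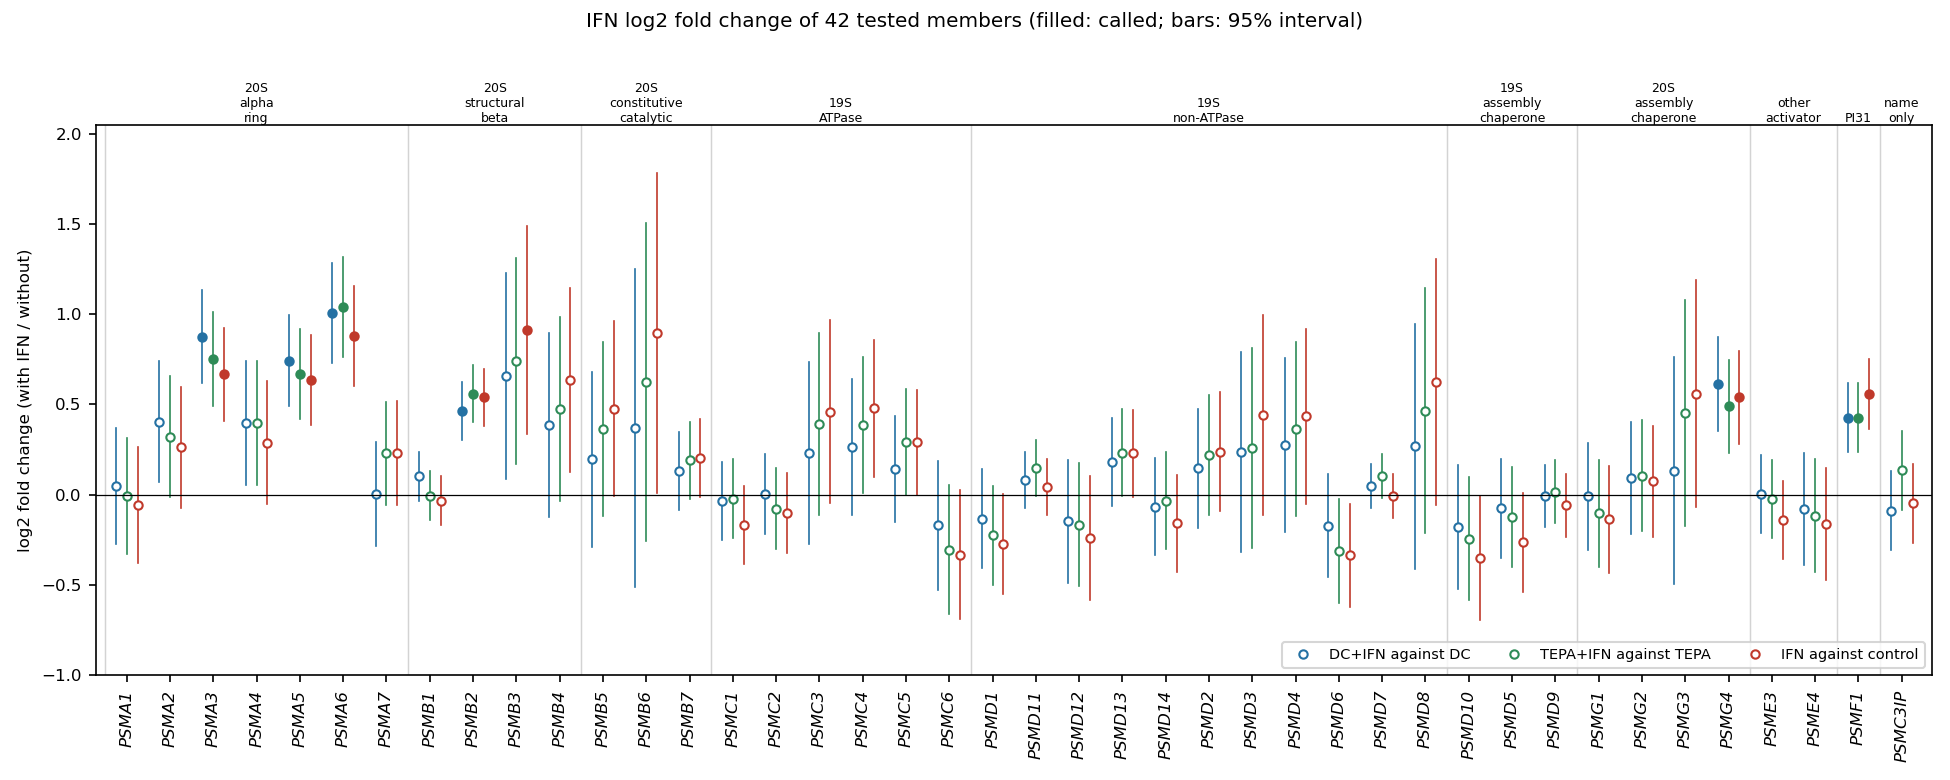
Log2 fold change with IFN (vertical axis) of the 42 tested members outside PSMB8, PSMB9, PSMB10, PSME1 and PSME2, ordered by role, in the DC, TEPA and no-chelator comparisons. Filled points passed the test and bars are 95% intervals; the calls fell in the alpha ring (3 of 7), the structural beta subunits (2 of 4, in at least 1 comparison), PSMG4 and the inhibitor PSMF1, with 0 of 17 in the 19S particle.

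Base composition moved with these smaller differences, and with the level of PSMB10, whose GC fraction of 0.601 was the highest of the members. In every group the library highest in PSMB10 was also highest in the GC measure. Over 15 alternatives the log2 difference of PSMB10 in IFN against the control ran from 3.56 to 4.64 and was called in each. The part of GC content in its size was not tested further. The GC measure was -0.19, -0.16 and 0.38 with DC and IFN, against -0.48, 0.20 and -1.03 with DC. It was 0.26, 0.88 and 0.14 with TEPA and IFN, against -1.02, 0.63 and -0.76 with TEPA, so both pairs overlapped. In the 30 of 47 members whose IFN and control libraries did not overlap (63.8%, against 57.1% of all genes tested), 6 were lower with IFN. The same count was 21 (44.7%, against 32.1% of all genes) in the DC pair and 19 (40.4%, against 29.8%) in the TEPA pair. Once each library's trend with GC content was removed, 17 members were called higher and 1 lower in IFN against the control, where 32.4% of all genes were then called. Among the members called in that setting were PSMC4 (0.16), which had 0.48 without the correction, and PSMD6 (-0.15), which had -0.34. The 11 shared members remained called in all 3 comparisons, and PSMA2, PSMA4, PSMB3 and PSMG2 joined them. The part of GC content in the differences that were not called was not tested further.

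**Figure D4:**
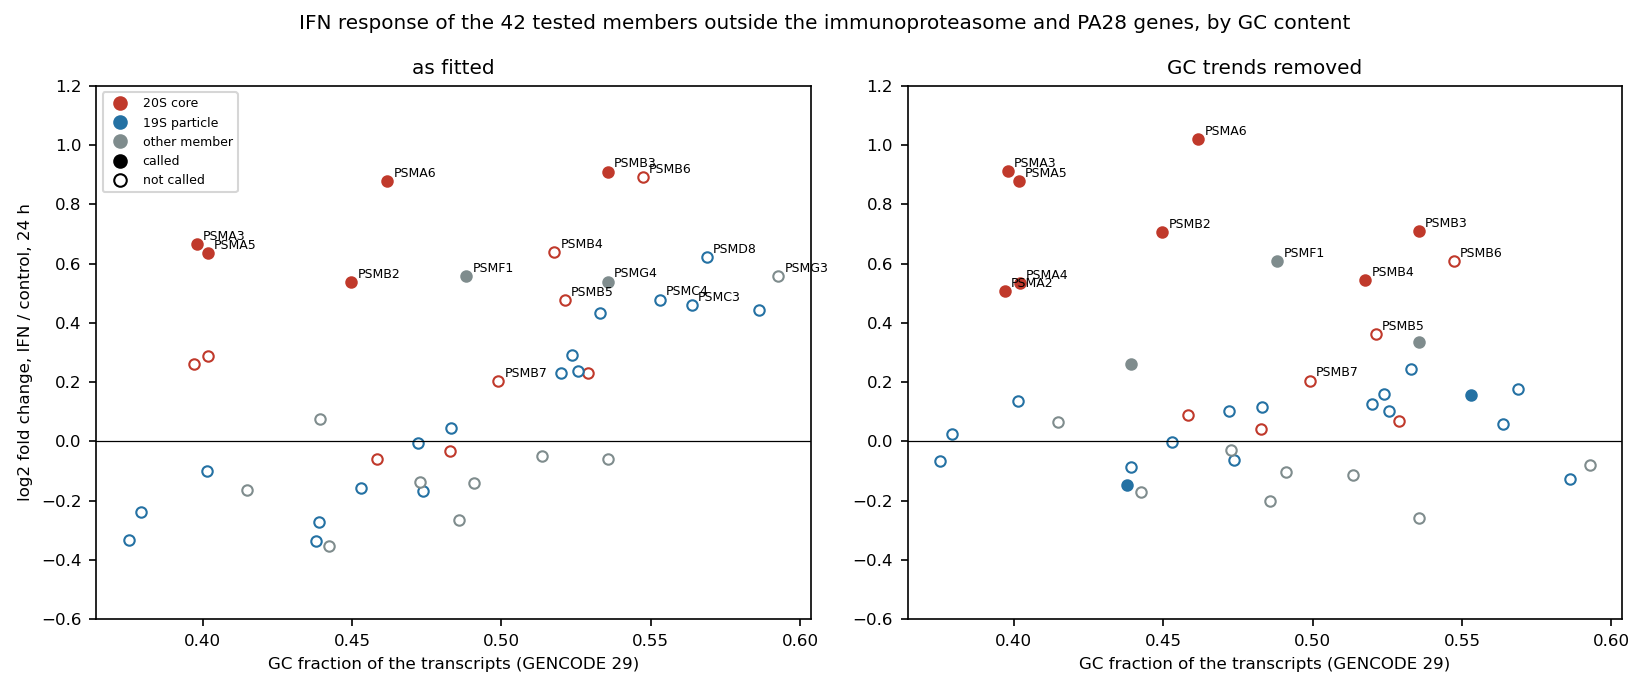
Log2 fold change in IFN against the 24 h control (vertical axis) by GC fraction of the transcript (horizontal axis) for the same 42 genes, as fitted and with each library's GC trend removed (filled points passed the test). As fitted, low values lay at low GC and high values at high GC among 19S genes; with the trends removed the 19S genes ran from -0.15 (PSMD6) to 0.25 (PSMD4) while PSMA6 was at 1.02 and PSMA3 at 0.91.

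With all 24 libraries in the fit and GC trends left in, no member's level with IFN differed past the test when a chelator was added. With GC trends removed, 3 members were called lower in TEPA with IFN against IFN, as given below. In DC with IFN against IFN, 0 of 47 members were called by edgeR, where 0.0205% of all genes were (0.0136% higher, 0.00682% lower), and 0 had an unadjusted p under 0.05. In TEPA with IFN against IFN, 0 were called, where 1.9% of all genes were (0.757% higher, 1.15% lower), and 1 (PSMD7, 0.13) had an unadjusted p under 0.05. Groups did not overlap in 3 members with DC (6.38%, against 8.05% of all genes) and in 5 with TEPA (10.6%, against 22.1%). DESeq2 and limma-voom called 0 in both. PSMB8 differed by -0.25 (95% interval -0.59 to 0.09) with DC and by 0.20 (-0.13 to 0.54) with TEPA. PSMB9 differed by -0.35 (-0.75 to 0.05) and -0.29 (-0.69 to 0.11), and PSMB10 by -0.65 (-1.61 to 0.31) and -0.27 (-1.23 to 0.68). PSME1 and PSME2 lay between -0.12 and -0.04.

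The interaction terms, which ask whether the IFN effect differed with the chelator, called 0 members by edgeR, DESeq2 and limma-voom, and 0 had an unadjusted p under 0.05 in edgeR. In edgeR no gene in the whole table was called (0%), while DESeq2 called 2 genes in the DC interaction, neither of them a member. The values of PSMB10 were the most negative, -1.23 for DC (95% interval -2.74 to 0.29) and -1.34 for TEPA (-2.83 to 0.14). Both share the IFN and 24 h control libraries, and PSMB10 in those controls had 46 counts in all. Over 21 alternatives these values ran from -1.58 to -0.72 for DC and from -1.71 to -0.74 for TEPA. PSMB10 also moved with the base composition of the libraries, as given above. For PSME1 and PSME2 the intervals were narrow, from -0.28 to 0.22 and -0.31 to 0.20 with DC and from -0.33 to 0.17 and -0.34 to 0.17 with TEPA.

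Without IFN, the chelators left the members uncalled in the fit of all 24 libraries with GC trends left in. In DC against the 24 h control 0 members were called by edgeR, where 0.0136% of all genes were, 0 had an unadjusted p under 0.05, and the values ran from -0.08 to 0.57. In TEPA against the 24 h control 0 were called, where 1.06% of all genes were (0.519% higher, 0.539% lower), 6 had an unadjusted p under 0.05, and the values ran from -0.34 to 1.07. DESeq2 and limma-voom called 0 in both. Groups did not overlap in 0 members with DC (against 5.11% of all genes) and in 8 with TEPA (17.0%, against 17.2%). PSMB10 was at the top of both ranges, with 0.618, 1.01 and 0.538 CPM in DC, 0.588, 1.7 and 0.754 CPM in TEPA, and 0.17, 0.705 and 0.579 CPM in the control, and its groups overlapped. The compounds share those control libraries, so their values are given side by side only.

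PSME4, an activator that caps the core in the nucleus, was the lowest member with TEPA. It had 262, 214 and 249 CPM in TEPA, against 302, 298 and 318 CPM in the 24 h control, with no overlap (-0.34, 95% interval -0.65 to -0.03, adjusted p = 0.447 in edgeR). With IFN it had 224, 198 and 247 CPM in TEPA with IFN, against 254, 252 and 313 CPM in IFN, again with no overlap (-0.29, adjusted p = 0.484 in edgeR). In the groups alone with the replicate block, 1 member of those tested was called in TEPA against the control, and it was PSME4. In that setting 1.78% of all genes were called, so a count of 1 is near that share.

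With GC trends removed, 5 of 47 tested members were lower in TEPA against the 24 h control (PSMA7, PSMC1, PSMC4, PSMD6 and PSME4). In TEPA with IFN against IFN 3 of 47 were lower (PSMC4, PSMD6 and PSME4). In that setting 1348 (9.2%) and 1917 (13.1%) of all 14654 genes were called in either direction, and 653 and 889 of those calls were higher. The shares of all genes called lower alone were smaller than these percentages. These 2 comparisons share no library, but the overlap of their calls over all genes was not counted, so the shared members have no background to be set against. PSMC4, an ATPase of the 19S base, had 69.7, 103 and 69.9 CPM in TEPA, against 82, 96.8 and 80.4 CPM in the control, so the uncorrected levels overlapped. The GC measure was -1.02, 0.63 and -0.76 in TEPA, against -0.97, -0.37 and -0.79 in the control.

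Copper for 4 h left all 47 members uncalled by edgeR, where 5.85% of all genes were called (2.65% higher, 3.2% lower), and 4 had an unadjusted p under 0.05 (PSMD1, PSMD10, PSMA3 and PSMD7). Groups did not overlap in 2 members (4.26%, against 12.7% of all genes). PSMB8 differed by -0.09, PSMB9 by -0.27, PSMB10 by -0.17, PSME1 by -0.01 and PSME2 by 0.01 on the log2 scale. The lowest values were in PSMD10, PSMD1 and PSMA3. PSMD1, a large scaffold subunit of the 19S base, had 279, 216 and 198 CPM with copper, against 385, 287 and 266 CPM in the 4 h control (-0.44, SE 0.13, adjusted p = 0.0594 in edgeR). PSMD10, a chaperone of the 19S base also known as gankyrin, had 41.4, 30.2 and 25.8 CPM with copper, against 57.5, 41 and 36.5 CPM in the control (-0.47, SE 0.17, adjusted p = 0.116 in edgeR). PSMA3 had 98.5, 80.3 and 74.9 CPM with copper, against 137, 98.9 and 93.7 CPM in the control (-0.38, SE 0.12, adjusted p = 0.0879 in edgeR).

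In all 3 genes the groups overlapped, library 1 was the highest of each group, and each copper library was below the control library of the same number. Deviations of same-numbered libraries were correlated here (lowest 0.350). With the replicate block edgeR called PSMA3 and PSMD1 lower, where 7.51% of all genes were called. DESeq2 called PSMD1 alone, where 7.71% of all genes were called. With GC trends removed, PSMA3 (-0.31), PSMD1 (-0.39), PSMD10 (-0.42) and PSMD12 (-0.14) were lower and PSMC1 (0.19), PSMD7 (0.19) and PSMG3 (0.26) were higher, where 21.3% of all genes were called. With both 4 h libraries numbered 1 left out, an alternative chosen after seeing the data, 2 members were called lower, where 5.03% of all genes were called.

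**Figure D5:**
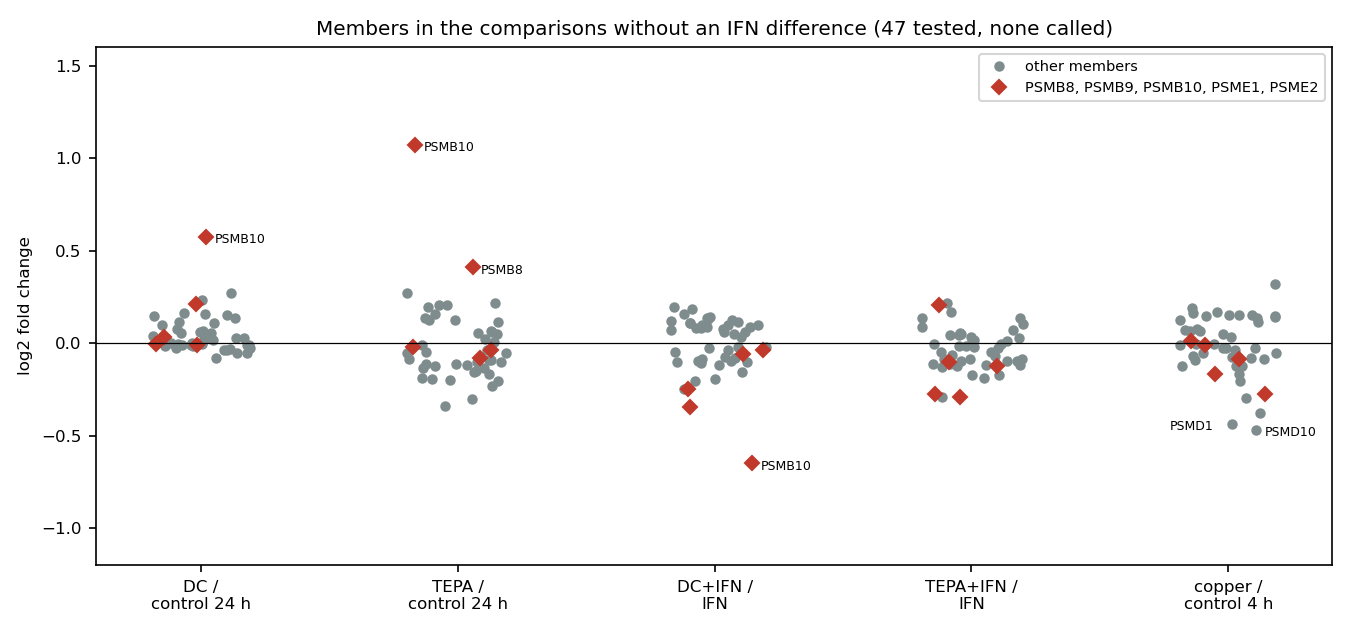
Log2 fold change (vertical axis) of the 47 tested members in the 5 comparisons that do not set IFN against its absence (points are genes, red diamonds mark PSMB8, PSMB9, PSMB10, PSME1 and PSME2). No gene was called in this fit of all 24 libraries with GC trends left in. PSMB10 stood highest in TEPA (1.07) and DC (0.57) and lowest in DC with IFN against IFN (-0.65). PSMD1 and PSMD10 were lowest with copper.

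Genes that act before and after the proteasome were read from lists. Of 11 tested genes of interferon gamma signalling and its regulators, 8 rose with IFN, among them NLRC5 (9.42 on the log2 scale), which drives class I genes, and IRF1 (7.32), which binds response elements of the kind shown above. CIITA, the class II regulator, rose as well, with 6.62, 5.61 and 2.48 CPM with IFN and 0 counts in each 24 h control library, so no fold is given. Of 14 tested genes of peptide trimming and transport, 8 rose, among them TAP1, ERAP2 (8.49) and TAP2 (5.95), and TAPBPL had 5.04, 5.57 and 2.86 CPM with IFN and 0 counts in the control. Of 9 tested class I loading genes and heavy chains, 6 rose, with B2M at 3.89 and HLA-B at 10.73, where similar copies of the heavy chain genes make single values uncertain.

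Genes of the wider ubiquitin system were read in the same way. Of 19 tested accessory and shuttle factors of the 26S proteasome, 0 were called with IFN by edgeR, and 5 had an unadjusted p under 0.05 (median -0.10). The most abundant were VCP, the unfoldase that delivers substrates, with 519.99, 519 and 512 CPM with IFN, against 433, 507 and 416 CPM in the 24 h control, and RAD23B, a shuttle for ubiquitinated proteins, with 327, 308 and 345 CPM with IFN, against 360.4, 357 and 334 CPM in the control. Of 9 tested ubiquitin and ubiquitin-like genes, 4 rose. Among them were UBE2L6 (4.91), the conjugating enzyme of ISG15, UBE2Z (0.24) and ISG15 itself, with 1.44, 1.22 and 0.477 CPM with IFN and 0 counts in the control. Of 7 transcription factors tied to proteasome genes, MAFF alone rose with IFN (1.99, SE 0.26, adjusted p = 1.23e-05 in edgeR).

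With copper, 3 of those 7 transcription factors rose while 0 of 47 members were called. NFE2L2, the oxidative stress factor, had 278, 208 and 197 CPM with copper, against 189, 131 and 128 CPM in the 4 h control, and its lowest copper library was above the highest control (0.61, SE 0.14, adjusted p = 0.013 in edgeR). MAFG, its partner, had 0.70 and BACH1, a repressor at the same sites, had 0.51. Among accessory factors, UBE3C (-0.31) and UBQLN2 (-0.32) fell with copper, and UBE2Z (-0.27) fell among the ubiquitin-like genes.

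Markers of other cell types were followed beside the IFN response. The summed level of 8 leukocyte markers was 5.72 to 7.94 CPM in IFN, against 0.577 to 1.91 CPM in the 24 h control. CD68 alone rose in that list (3.34, SE 0.60, adjusted p = 0.000457 in edgeR), 3 of the 8 were at 0 in all libraries and the others were under 1 CPM, so 1 of 2 tested genes moved. Of 6 tested fibroblast and endothelium markers, PDGFRB rose (1.15) and COL1A2 fell (-0.82). The summed level of the 8 in that list was 573 to 686 CPM in IFN, against 488 to 579.7 CPM in the 24 h control. Of 11 tested neuroblastoma markers, CHGB rose (0.49) and DDC (-0.67) and STMN2 (-0.63) fell. The epithelium (1 tested) and Schwann cell lists (2 tested) had 0 calls and 0 genes at an unadjusted p under 0.05 in edgeR. Their part in the proteasome results was not tested.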

How the data were processed

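Transcripts were measured by RNA sequencing in 24 libraries of 8 groups with 3 libraries each. The authors deposited raw counts, whole numbers for each gene, as 1 table and as 24 lists that equal its columns. Per the submitters' processing notes, the authors used STAR 2.5a, RSEM 1.2.31 and build hg38, and per the labels' protocols the library kit was stranded. The annotation release, strand setting and filters are not given in the sources used here. The counts carry no molecular identifiers, so depth (24569980 to 35372442 counts) sets counting error only.

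In R 4.3.3, genes were filtered with filterByExpr of edgeR 4.0.16 (minimum count 10), leaving 14654, and scaled with TMM. A quasi-likelihood model with 1 mean per group was fitted to all 24 libraries (16 residual degrees of freedom, common biological coefficient of variation 0.207), with Benjamini-Hochberg adjustment over all genes. It was tested on simulated data. The SE of a log2 fold change is its size over the root of F. Alternatives were DESeq2 1.42.0, its size factors in edgeR, voom of limma 3.58.1, no filter, the groups of a comparison alone, a replicate block, GC trends removed as lowess offsets (span 0.3), and leaving out each library. GENCODE 29 gave location, length and GC content for 90.2% of symbols. Promoter windows are from RefSeq.

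Members and lists (6 of related genes, 5 of markers) were chosen with earlier results of these data known. Library values are given for PSMB8, PSMB9, PSMB10, PSME1, PSME2, PSMB5, PSMB6, PSMB7 and members called in IFN against control with an absolute log2 fold change of at least 0.5. Those of PSMC4, PSMD1, PSMD10 and PSME4, and of PSMA3 with copper, were chosen after their values were seen. From other lists up to 4 called genes by size are named, or the 2 with the highest mean CPM where none was called. B2M was also chosen after its values were seen. Some genes of the lists are not reported here.

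Replicate numbers in the labels were checked as pairs by the correlation of same-numbered libraries' deviations from their group means. All 3 correlations were over 0.1 in TEPA with IFN against TEPA (lowest 0.226), DC against control (0.154), TEPA against control (0.232) and copper against control (0.350), and not in the others.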

Additional observations from a re-analysis of the deposited data

Results flagged for a closer look

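PSMB8-AS1, a noncoding RNA gene beside PSMB8 that is not a subunit gene and enters no comparison of the subunits, had a signal with IFN above its controls. Its mean was 29.3 CPM in the 3 IFN libraries, against 0.136, 0.0336 and 0.029 CPM in the 24 h control libraries. The library kit was stranded, but the strand setting of the counting is not given. Whether reads from PSMB8 and PSMB8-AS1 were separated where their exons overlap is therefore not known here.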

How the results depend on the processing

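With DESeq2 size factors, DESeq2, limma-voom or no filter, 12, 11 and 11 members were called in the 3 IFN comparisons, as in edgeR. In IFN against the 24 h control, 20 were called with GC trends removed and the replicate block (36.7% of all genes), 31 in the groups alone (47.8%) and 33 there with the block (51.7%), and leaving out 1 library gave 11 to 14. In TEPA with IFN against TEPA, 19 were called with GC trends removed (29.4% of all genes), 20 with the block added (31.9%) and 25 in the groups alone with the block (30.7%); leaving out 1 library gave 10 to 15, and in the DC pair 11 each time, where the block in the groups alone gave 9 (3.97%), without PSMG4 and PSMF1 (adjusted p = 0.185 and 0.0636 in edgeR). In TEPA with IFN against IFN these 3 settings gave 3, 6 and 9 (13.1%, 14.8% and 19.7%), PSMB8 (0.22) and PSMB9 (-0.27) among the 9, and in TEPA against the control 5, 7 and 1 (9.2%, 10.7% and 1.78%). With copper, DESeq2 gave 1 (7.71%), the replicate block 2 (7.51%), GC trends removed 7 (21.3%), both together 9 (22.5%), the block in the groups alone 8 (18.3%), leaving out 1 library 0 to 3, and leaving out both libraries numbered 1 gave 2 (5.03%). Control library 2 or 3 or copper library 1 decided this: without them 2, 3 and 3 were called (4.99%, 7.35% and 7.62% of all genes). In the TEPA interaction no member was called, but over all genes the block gave 2 calls and GC trends removed 7. With all 24 libraries and GC trends left in, the block changed no other count of members called by over 1.5 times. Over all genes it moved the calls in IFN against the control from 2761 to 4333, and in TEPA with IFN against IFN from 279 to 428.

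In the no-chelator stratum alone the ratio differences were 7.14 (PSMB8), 10.19 (PSMB9) and 4.19 (PSMB10), with an exact permutation p of 0.1, the smallest 3 against 3 libraries can give. Paired by replicate number over all 3 strata, the differences were 7.03, 10.23 and 3.34, each with an exact sign-flip p of 0.00391. Of these strata only the TEPA one passed the check of the numbers as pairs. Leaving out 1 library changed the sign of PSMC4 in TEPA against the control (0.020 without control library 2, 0.031 and 0.029 without TEPA library 1 and 3; range -0.30 to 0.031). It also changed that of PSMD12 (0.021; range -0.38 to 0.021) and PSMG3 (-0.0062; range -0.0062 to 0.63) with copper, both without control library 1. Of 80 gene results, 1116 repeats kept direction and call, 99 gained the call, 11 lost it and 5 changed sign. The cause of these changes was not tested. Depth limits PSMB9 without IFN, at 0 to 3 counts a library at 24 h.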
